A study of Mus musculus with 6 samples.

Results

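Gas5 (growth arrest-specific 5) is a mouse non-coding gene whose introns hold small nucleolar RNAs (snoRNAs). Its transcript was measured in whole liver of 6 mouse embryos at e12.5 (day 12.5 of development). The 3 Rb null and 3 wild type embryos came from matings of 129sv mice heterozygous for Rb, none was treated, and after dissection and disaggregation of each liver 1 Affymetrix array was hybridised per embryo. The labels do not describe the Rb allele and name no sex or batch. All probe sets that the platform annotation assigns to Gas5 were taken, which gave 3 of the 12422 probe sets that are not array controls. Each of the 3 carries Gas5 as its single symbol, and they stand for 1 of 8251 genes on the array. Probe sets 98531_g_at and 98530_at share 1 source sequence, and probe set 101885_at has another. Gas5 was selected on its measured signal difference between the genotypes. Its own values are therefore a description, and no test of them is given.

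Gas5 RNA is spliced from several short exons that hold no conserved reading frame, while its introns release box C/D snoRNAs, which guide ribose methylation of ribosomal RNA. The transcript starts with a terminal oligopyrimidine (TOP) tract, like the messages of ribosomal proteins, whose translation follows mTOR activity. Spliced Gas5 RNA is known to associate with ribosomes and to be removed by nonsense-mediated decay, so that it builds up in cells that stop growing or translating. It is also known to bind the glucocorticoid receptor as a decoy of its DNA sites.

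In the RefSeq annotation of GRCm38.p6, Gas5 lies on chromosome 1 and spans 8 snoRNA genes, 1 of which carries an established symbol, Snord47. It overlaps the protein-coding gene Zbtb37, which is on the array. None of the 8 snoRNAs is represented on the array, so the measurements concern the host transcript and not its snoRNAs. The sources used here do not place the array probes within the gene.

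Of the 6 hosts without a protein on the array, Gas5 included, 4 had promoter windows in the RefSeq table. Gas5 has a pair of start sites there, and both promoters are shown because E2F transcription factors are the best known partners of the Rb protein. Each window runs from 250 bases before to 50 bases after a start. Capitals in these windows mark matches to TTTNNCGC (a motif of E2F factors), TGACGTCA (the cAMP response element of CREB and ATF factors) or TATATA (a core promoter motif), searched on both strands. The third window belongs to Snhg1, another snoRNA host gene without a protein product.
Gas5 first start, GRCm38.p6 chr1:161034351-161034650, plus strand: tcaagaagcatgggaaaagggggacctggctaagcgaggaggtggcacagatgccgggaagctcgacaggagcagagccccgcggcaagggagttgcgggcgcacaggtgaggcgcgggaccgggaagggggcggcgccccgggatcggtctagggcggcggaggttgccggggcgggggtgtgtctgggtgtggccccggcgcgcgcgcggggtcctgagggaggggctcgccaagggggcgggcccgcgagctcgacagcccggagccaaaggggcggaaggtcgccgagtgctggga
Gas5 second start, GRCm38.p6 chr1:161034916-161035215, plus strand: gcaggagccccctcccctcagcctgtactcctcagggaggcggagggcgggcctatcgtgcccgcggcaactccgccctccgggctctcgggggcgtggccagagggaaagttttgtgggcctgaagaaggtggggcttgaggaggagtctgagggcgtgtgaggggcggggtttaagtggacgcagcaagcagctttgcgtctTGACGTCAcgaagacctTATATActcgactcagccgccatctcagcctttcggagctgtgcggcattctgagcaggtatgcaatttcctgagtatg
Snhg1 start, GRCm38.p6 chr19:8723237-8723536, plus strand: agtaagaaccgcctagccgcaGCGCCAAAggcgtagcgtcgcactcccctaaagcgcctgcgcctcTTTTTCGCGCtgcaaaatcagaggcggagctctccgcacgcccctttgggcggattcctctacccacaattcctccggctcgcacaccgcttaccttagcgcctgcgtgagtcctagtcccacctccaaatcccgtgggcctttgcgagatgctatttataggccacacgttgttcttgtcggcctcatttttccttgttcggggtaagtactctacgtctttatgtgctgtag

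The second Gas5 window held TGACGTCA at positions -46 to -39 and TATATA at positions -29 to -24, counted with the start as 0. Of all 32851 promoter windows of this length, 1.79% held TGACGTCA, 5.67% held TATATA and 5.17% held TTTNNCGC. Neither Gas5 window held TTTNNCGC, and nor did the windows of the hosts Snhg5 and Snhg11, which are not shown. Only the Snhg1 window did, with 3 matches, 2 of which overlap. The first Gas5 window held none of these motifs and had 5 copies of the GC box GGGCGG, against 3 in the second, where 35.7% of all windows had at least 1. These are matches of letters, and binding was not measured.

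On the brightest probe set, 98531_g_at, the Gas5 signal was 2107, 2123 and 2188 in Rb null embryos 1 to 3 and 612, 625 and 579 in wild type embryos 1 to 3. The lowest Rb null liver was thus 3.37-fold above the highest wild type liver, and the embryos of a genotype lay close together. The means were 2139 ± 42.7 with Rb null and 605 ± 23.7 with wild type genotype (SD, n = 3 each), with coefficients of variation of 2.00% and 3.92%. Signals are MAS5 values on a linear scale. On the scale of log2 of the signal plus an offset of 50.02, used for every difference here, the Rb null livers were higher by 1.74 ± 0.06 (SE), and each of them lay between 1.72 and 1.77 above the wild type mean. In whole-liver RNA, more cells that contain Gas5 RNA and more Gas5 RNA per cell cannot be told apart.

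**Figure D1:**
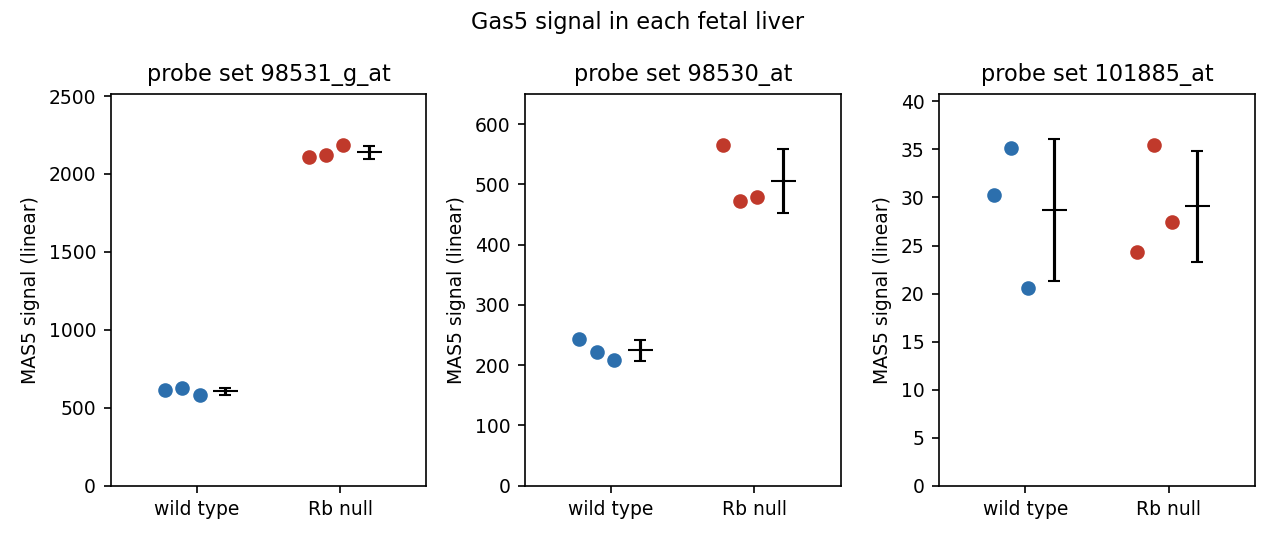
Gas5 signal (MAS5 units, linear axis from 0) of each embryo on the 3 Gas5 probe sets, in wild type (blue) and Rb null (red) livers, with the mean and SD of the 3 embryos beside them in black. The genotypes are apart on 98531_g_at and 98530_at and overlap on 101885_at, where all 6 signals lie between 20.6 and 35.5.

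Probe set 98530_at gave a smaller difference. Its signal was 566, 472 and 479 in Rb null and 243, 222 and 209 in wild type embryos, so that the genotypes did not overlap here either. Rb null embryo 1 stood above the other two, and the mean was 506 ± 52.3 against 225 ± 17.3 (SD, n = 3 each). The log2 difference was 1.01 ± 0.10 (SE), and the mean signals differed 2.25-fold, compared with 3.53-fold on 98531_g_at. The log2 ratio of the brighter over the dimmer of these probe sets was 1.90 to 2.19 in the Rb null and 1.33 to 1.49 in the wild type livers. The probe sets therefore did not measure equal changes, although their log2 values followed each other over the 6 arrays (Pearson r = 0.983, a description in which the genotype gap is shared). The letter g in a probe set name can mark probes shared within a group of similar sequences.

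Probe set 101885_at was dim, with signals of 24.3, 35.5 and 27.5 in Rb null and 30.3, 35.1 and 20.6 in wild type embryos. These values overlap, and their log2 difference was 0.01 ± 0.11 (SE, from the fit without the signal filter). Its mean over all arrays was 28.9, below the filter of 150.1 on mean signal, so it was not tested. Of the 3 Gas5 probe sets 2 passed this filter, and the genotypes did not overlap on both. Among the 5273 tested genes, 23.5% had all Rb null signals above all wild type signals, 17.6% had them all below, and 13.1% were called higher and 9.5% lower at a limma adjusted p below 0.05.

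Gas5 had the fifth largest upward difference of the tested genes when represented by its brightest probe set. Just above it stood the inducible chaperone gene Hspa1a, with 364, 389 and 335 in Rb null and 68.4, 37.5 and 81.3 in wild type embryos (log2 difference 1.89 ± 0.16). Just below it stood the neighbouring chaperone gene Hspa1b, at 395 ± 19.7 against 104 ± 14.3 (1.53 ± 0.11). Both were below the signal filter in wild type livers, which Gas5 was not. Without probe sets whose suffix can mark shared probes, Gas5 is represented by 98530_at, and its rank was 23. The mean of its 3 probe sets gave a difference of 0.92 and the same rank. The pooled SD within a genotype on probe set 98531_g_at was 0.04 on the log2 scale against a median of 0.11 over all tested genes, and 93.6% of the genes varied more than it did. On 98530_at the pooled SD was 0.11, at the median gene, so the small spread belongs to 1 probe set.

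Among the other snoRNA host genes without a protein product, Snhg6 was called higher and none was called lower. Of 20 listed besides Gas5, 5 were on the array and 4 passed the signal filter. Beside 13.1% higher and 9.5% lower calls over all tested genes, 1 of these 4 was called higher and 0 lower by limma. Of the 4, 0 were lower at an unadjusted p below 0.05. Their median difference was -0.04, beside 0.02 over all tested genes. Snhg6 was higher, with 369, 365 and 340 in Rb null against 271, 257 and 250 in wild type embryos (0.40 ± 0.09, limma adjusted p = 0.014). Its genotypes did not overlap, but on leaving out Rb null embryo 1 or embryo 2 it missed the threshold (adjusted p = 0.052 in either case), as did the average of its probe sets (0.13, adjusted p = 0.39).

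Snhg1, which hosts a larger set of snoRNAs, read 2102, 2370 and 1941 in Rb null and 2378, 2525 and 2280 in wild type embryos. These overlap, and the difference of -0.16 ± 0.08 did not pass (limma adjusted p = 0.18), although it passed after scaling the arrays to equal medians (-0.30, with an adjusted p of 0.023). Snhg5 read 530 ± 33.9 against 563 ± 15.3 (-0.08 ± 0.08, adjusted p = 0.49). The host Epb41l4aos read 1060 ± 83.5 against 1066 ± 67.0 (-0.01 ± 0.08, adjusted p = 0.95). Snhg11 stayed below the signal filter, at 32.2 ± 5.16 against 18.6 ± 13.1. The Gas5 difference on its brightest probe set was thus more than the difference of any of these hosts, and that contrast was not tested because Gas5 was chosen for it. The single probe set of a snoRNA itself, Snora7a, was below the signal filter as well (98.4 ± 11.1 against 107 ± 6.01).

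**Figure D2:**
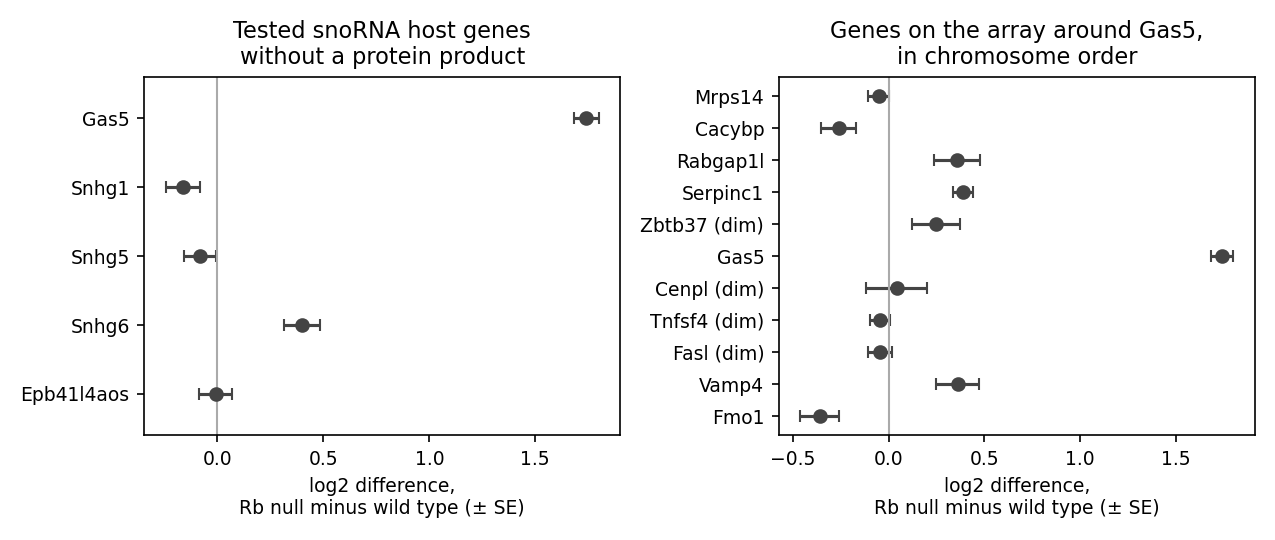
Log2 difference (Rb null minus wild type, with its SE) of Gas5 and the other tested snoRNA host genes without a protein product on the left, and of the genes on the array on either side of Gas5 in chromosome order on the right (dim marks genes below the signal filter). Gas5 lies at 1.74, and the other points lie between -0.36 and 0.40.

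Genes that make a protein and also carry snoRNAs in their introns had lower calls and no higher ones, and the number of lower calls fell to 2 without Rb null embryo 1, wild type embryo 2 or the intensity trend. Of 23 tested, 0 were called higher (0 at an unadjusted p below 0.05) and 5 lower by limma (21.7%). Over all tested genes, 13.1% were called higher and 9.5% lower. The median difference of the 23 was -0.18, beside 0.02 over all tested genes and -0.15 over the brightest 10% of all tested genes. Nop56, a core protein of box C/D snoRNPs that itself hosts snoRNAs, fell from 2543 ± 148 to 1904 ± 6.13 (-0.41 ± 0.06, limma adjusted p = 0.0025). Ncl, the nucleolar protein nucleolin, fell from 8796 ± 290.5 to 7226 ± 307 (-0.28 ± 0.05), which quantile normalization reduced to -0.11 (adjusted p = 0.071). Rpl7a, a ribosomal protein of the large subunit, fell from 9569 ± 790.1 to 7664 ± 863 (-0.32 ± 0.09). Quantile normalization ended that call (-0.15, adjusted p = 0.10), and so did leaving out Rb null embryo 1 or 2 or wild type embryo 2 or 3 (p from 0.072 to 0.13). Hspa8, a constitutive chaperone, fell by 0.29 ± 0.07 on the log2 scale, which quantile normalization reduced to -0.12 (adjusted p = 0.38). Leaving out Rb null embryo 1 or wild type embryo 1 or 2 also ended the Hspa8 call (p from 0.052 to 0.071). The other was Rpsa, a ribosomal protein of the small subunit, which fell by 0.21 ± 0.05. It was named after its value was seen.

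Among proteins that assemble snoRNAs into particles, Nop56 and Nhp2 were called lower and none was called higher, in lists too short to set against the 13.1% higher and 9.5% lower calls of all tested genes. Of 8 tested genes of the box C/D particle and its assembly, 0 were called higher by limma (0 at an unadjusted p below 0.05) and 1 lower, which is Nop56 again (median -0.07). Fbl, the fibrillarin methyltransferase of the particle, read 3794 ± 73.3 against 3987 ± 119 (-0.07 ± 0.05, limma adjusted p = 0.35), and the assembly helicase Ruvbl1 read 1295 ± 55.9 against 1473 ± 73.9 (-0.18 ± 0.06, adjusted p = 0.077, or 0.017 after median scaling). Fbl was picked after its value was seen. Of 3 tested genes of the box H/ACA particle, which guides pseudouridylation, 0 were called higher by limma (0 at an unadjusted p below 0.05) and 1 lower (median -0.23). That one was Nhp2, which fell from 4543 ± 215 to 2766 ± 77.5 (-0.71 ± 0.05, adjusted p = 2.1e-04) with all Rb null embryos below all wild type embryos. Nop10 of the same particle read 4720.5 ± 357 against 5558.5 ± 579.5 (-0.23 ± 0.09, adjusted p = 0.089), and passed with the replicate block (adjusted p = 0.029) and after median scaling (adjusted p = 0.024).

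Messages of the translation machinery, which share the TOP start with Gas5, had more lower than higher calls, and the number of lower calls depended on the fit. Beside 13.1% higher and 9.5% lower calls over all tested genes, 1 of 22 tested ribosomal protein genes was called higher and 7 lower (median -0.16). Of 13 other TOP genes 0 were called higher by limma (1 at an unadjusted p below 0.05) and 2 lower (median -0.18). Among the brightest 10% of all tested genes, where most of these lie, the median difference was -0.15, near the medians of these lists. The 7 lower ribosomal protein calls fell to 0 after quantile normalization, without the intensity trend, and without Rb null embryo 1 or 2 or wild type embryo 2 or 3, and rose to 17 after median scaling. The lower calls of the other TOP genes fell to 0 without the signal filter or the intensity trend and without Rb null embryo 2 or wild type embryo 2 or 3. Rpl22, the ribosomal protein that rose, read 763 ± 39.5 against 510 ± 86.8 (0.55 ± 0.11, limma adjusted p = 0.011), but its other probe set differed by -0.23 and the mean of both by 0.16 (adjusted p = 0.66). Of the 7 that fell, Rpl7a is given above. Rps28 fell by 0.28 ± 0.08 and Rpl41 by 0.27 ± 0.07 on the log2 scale. Quantile normalization brought them to -0.02 and 0.00 and ended both calls, as did leaving out Rb null embryo 1 or 2 or wild type embryo 2 or 3 (p from 0.054 to 0.13). Averaging probe sets also ended the Rps28 call (-0.05, adjusted p = 0.68 by limma), as did leaving out shared-probe suffixes (-0.14, adjusted p = 0.12). The ribosomal protein genes have many near-identical copies in the genome, which can share probes.

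Of the other TOP genes, the elongation factor gene Eef1d fell from 1772 ± 109 to 1430 ± 147 (-0.30 ± 0.08, limma adjusted p = 0.033). The nucleolar chaperone gene Npm1 fell from 9382 ± 96.1 to 7933 ± 514 (-0.24 ± 0.06, adjusted p = 0.021). Each of these calls held on leaving out 1 embryo in a single case, Rb null embryo 1 for Eef1d (otherwise p from 0.058 to 0.11) and Rb null embryo 3 for Npm1 (otherwise p from 0.052 to 0.077). Neither passed after quantile normalization (limma adjusted p = 0.054 for Eef1d and adjusted p = 0.38 for Npm1). Without the signal filter, and separately without the intensity trend, the calls of Rpl7a, Hspa8, Rps28, Rpl41, Eef1d and Npm1 missed the threshold as well (limma adjusted p from 0.051 to 0.0996).

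Nonsense-mediated decay is the route by which spliced Gas5 RNA is known to be degraded. Of 8 tested genes of this route and of general RNA turnover, 0 were called higher (0 at an unadjusted p below 0.05) and 2 lower by limma (median -0.07). This list is too short to set against the 13.1% higher and 9.5% lower calls of all tested genes. Etf1, the release factor that recognises stop codons, fell from 4154 ± 72.7 to 3446 ± 96.7 (-0.27 ± 0.05, adjusted p = 0.0074). Rbm8a, a subunit of the exon junction complex, fell from 1816 ± 88.4 to 1534 ± 45.2 (-0.24 ± 0.06, adjusted p = 0.024). Leaving out Rb null embryo 1 or 3 or wild type embryo 2 or 3 ended the Rbm8a call (p from 0.051 to 0.073), and without the intensity trend its adjusted p was 0.0501. The surveillance factor gene Upf2 stayed below the signal filter and was not tested.

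Over the lists on snoRNAs, translation, RNA decay, steroid response and growth arrest together, 5 of 83 tested genes were called higher (6.02%) and 15 lower (18.1%), beside 13.1% and 9.5% of all tested genes. The lower calls depended on the fit and the scaling. They numbered 43 with the arrays scaled to equal medians, 8 after quantile normalization, 6 without the signal filter and 4 without the intensity trend, and between 4 and 15 on leaving out 1 embryo (4 without wild type embryo 2, 6 without Rb null embryo 1 or wild type embryo 3, and 7 without Rb null embryo 2). The higher calls numbered 1 with the mean of probe sets, 2 with the filter at the trimmed mean and 3 without Rb null embryo 1. Scaling to equal medians moved the median difference of all tested genes from 0.02 to -0.10 and the share of upward calls from 57.9% to 25.1%, while Gas5 stood at 1.61.

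**Figure D3:**
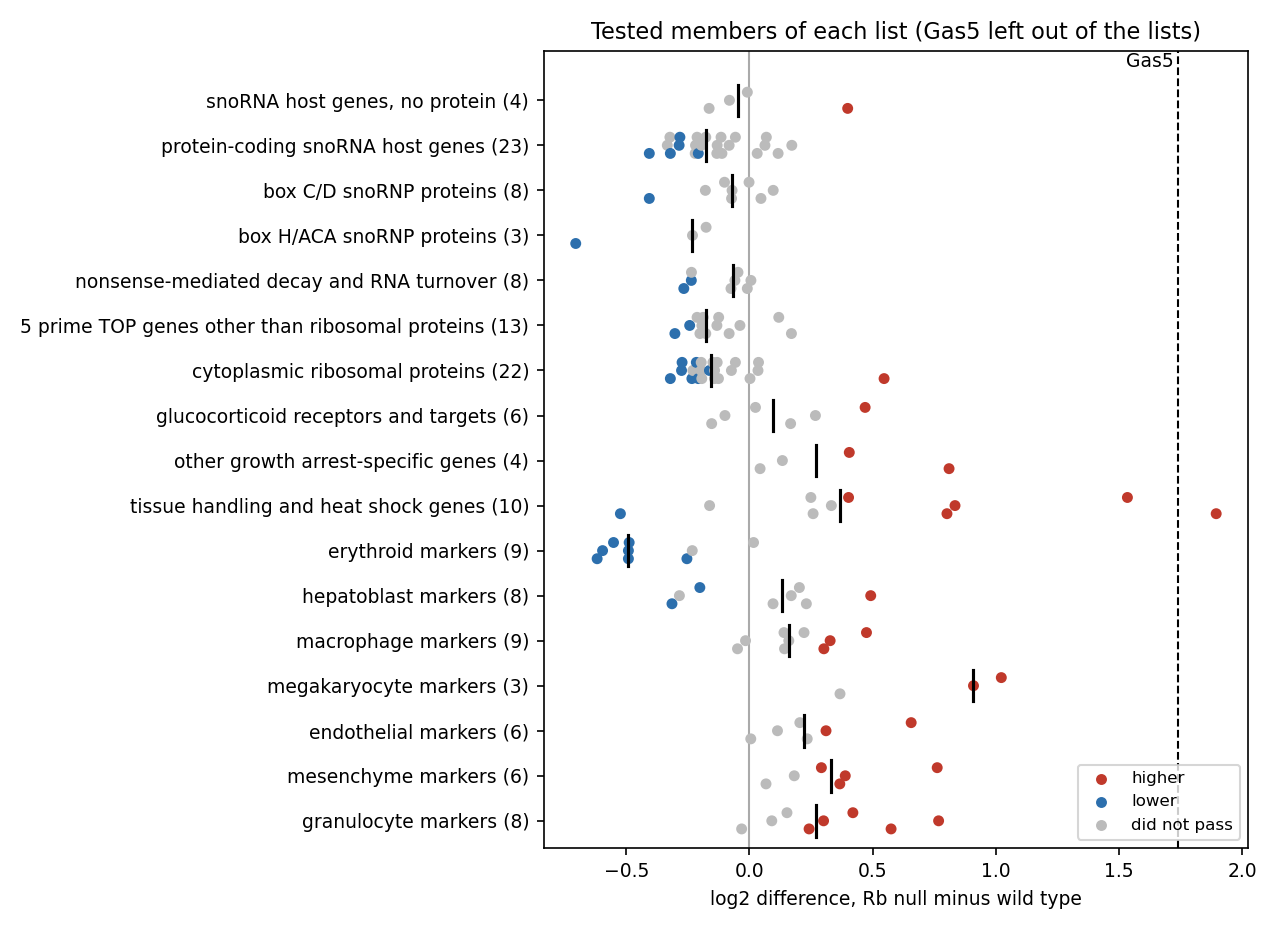
Log2 difference (Rb null minus wild type) of the tested members of each list, with called genes in red (higher) and blue (lower), the others in grey, and the median as a black bar. The number tested is in parentheses, and the dashed line marks Gas5 at 1.74. Hspa1a at 1.89 is the only listed gene to the right of that line.

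The glucocorticoid receptor gene Nr3c1, whose protein Gas5 RNA is known to bind, was dim. It read 124 ± 13.7 with Rb null and 71.7 ± 17.1 with wild type genotype, below the signal filter, and was not tested. Of 14 genes of the steroid list on the array, 6 were tested. Of the 6, 1 was called higher and 0 lower, and 0 were lower at an unadjusted p below 0.05 (median 0.10). Those counts stand beside 13.1% higher and 9.5% lower calls over all tested genes. Zbtb16, a zinc finger gene that glucocorticoids induce, read 245 ± 29.95 against 163 ± 18.9 (0.47 ± 0.12, limma adjusted p = 0.030). It missed the threshold by both other scalings (limma adjusted p = 0.071 by quantiles and adjusted p = 0.056 by medians) and as an average of its probe sets (0.11). Leaving out Rb null embryo 1 or 3 or wild type embryo 2 or 3 ended the call too (p from 0.053 to 0.098), as did dropping the signal filter (limma adjusted p = 0.071). Sgk1, a kinase gene named for its induction by serum and glucocorticoids, read 310.0 ± 21.2 against 249 ± 7.05 (0.27 ± 0.09, adjusted p = 0.070, or 0.039 without the intensity trend). Fkbp5, a co-chaperone of the receptor that was picked after its value was seen, read 1149 ± 208 against 1019 ± 185 (0.17 ± 0.15, adjusted p = 0.48).

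Gas5 was first found together with other transcripts that build up in growth-arrested fibroblasts. Of 4 tested genes from that screen or named after it 2 were called higher and 0 lower, with 0 lower at an unadjusted p below 0.05 (median 0.27). These 4 are too few to set against the 13.1% higher and 9.5% lower calls of all tested genes. Gas1, a membrane protein that restrains entry into S phase, read 575, 487 and 629 in Rb null and 350.2, 247 and 306 in wild type embryos. The genotypes did not overlap, and the difference was 0.81 ± 0.13 (limma adjusted p = 0.0048, and from 0.0039 to 0.024 over its alternatives). Pmp22, a myelin and epithelial membrane protein, read 659 ± 56.1 against 484 ± 26.9 (0.41 ± 0.08, adjusted p = 0.013), which the average with its dim other probe set did not pass (0.19, adjusted p = 0.15). Gas2 (0.04 ± 0.12, adjusted p = 0.83) and Gas6 (0.13 ± 0.12, adjusted p = 0.48) did not pass and were picked after their values were seen, and Gas7 and Gas8 stayed below the signal filter.

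The genes around Gas5 on chromosome 1 had log2 differences between -0.36 and 0.39. Of the 5 nearest genes on the array on each side, 6 passed the signal filter, of which 1 was called higher and 1 lower. These 6 are too few to set against the 13.1% higher and 9.5% lower calls of all tested genes. Serpinc1, the antithrombin gene of hepatocytes and the second of them before Gas5, read 2063, 2141 and 2143 in Rb null and 1612, 1621 and 1583 in wild type embryos. Its genotypes did not overlap (0.39 ± 0.05, limma adjusted p = 0.0018). Zbtb37, which overlaps Gas5, read 176, 146 and 155 in Rb null and 131, 132 and 114 in wild type embryos. Those signals do not overlap, but its mean was under the filter and it was not tested (0.25 ± 0.13). Fmo1, a flavin monooxygenase and the farthest of the 5 on the other side, fell by 0.36 ± 0.10 on the log2 scale (adjusted p = 0.038). Pairing by replicate block ended the Fmo1 call (limma adjusted p = 0.065), and so did leaving out Rb null embryo 1 or 2 or wild type embryo 1 or 3 (p from 0.090 to 0.11) and dropping the signal filter (adjusted p = 0.079). Vamp4, a membrane fusion gene, missed the threshold (0.36 ± 0.11, limma adjusted p = 0.052). It passed with both other probe set rules (limma adjusted p = 0.042 and 0.046). It also passed with the replicate block (limma adjusted p = 0.030) and, separately, on leaving out Rb null embryo 3 (limma adjusted p = 0.048). Rabgap1l (0.36 ± 0.12, adjusted p = 0.070) passed on leaving out that same embryo (adjusted p = 0.041), and Cacybp (-0.26 ± 0.09, adjusted p = 0.075) passed after median scaling (adjusted p = 0.020).

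The genes whose log2 values ran most nearly in step with Gas5 over the 6 arrays were Gata6, P4ha1, Kcnj8, Ctse, Kdm3a and Ptpre, with Pearson r from 0.998 to 0.999. Because the genotypes are far apart, r mainly reflects that gap, and 306 of 5272 other genes had r of at least 0.95. Gata6, a transcription factor of endoderm and mesoderm, read 781, 789 and 788 in Rb null and 439, 439 and 438 in wild type embryos. P4ha1, a prolyl hydroxylase subunit of collagen synthesis, read 628 ± 13.4 against 271 ± 12.2 (1.08 ± 0.08). Kdm3a, a histone demethylase, read 1314 ± 25.2 against 683 ± 21.1 (0.90 ± 0.06). Kcnj8, a potassium channel subunit of vessel walls, differed by 0.80 ± 0.11 and was below the signal filter in wild type livers, and Ptpre, a tyrosine phosphatase, differed by 0.72 ± 0.07. Ctse, the protease cathepsin E, differed by 2.74 ± 0.06 on this probe set, while its other probe sets differed by -0.29 and -0.92. After removing each genotype's mean, the correlations with Gas5 ranged from -0.48 (Ctse) to 0.62 (P4ha1), which shows that embryos of a genotype were not ordered alike.

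**Figure D4:**
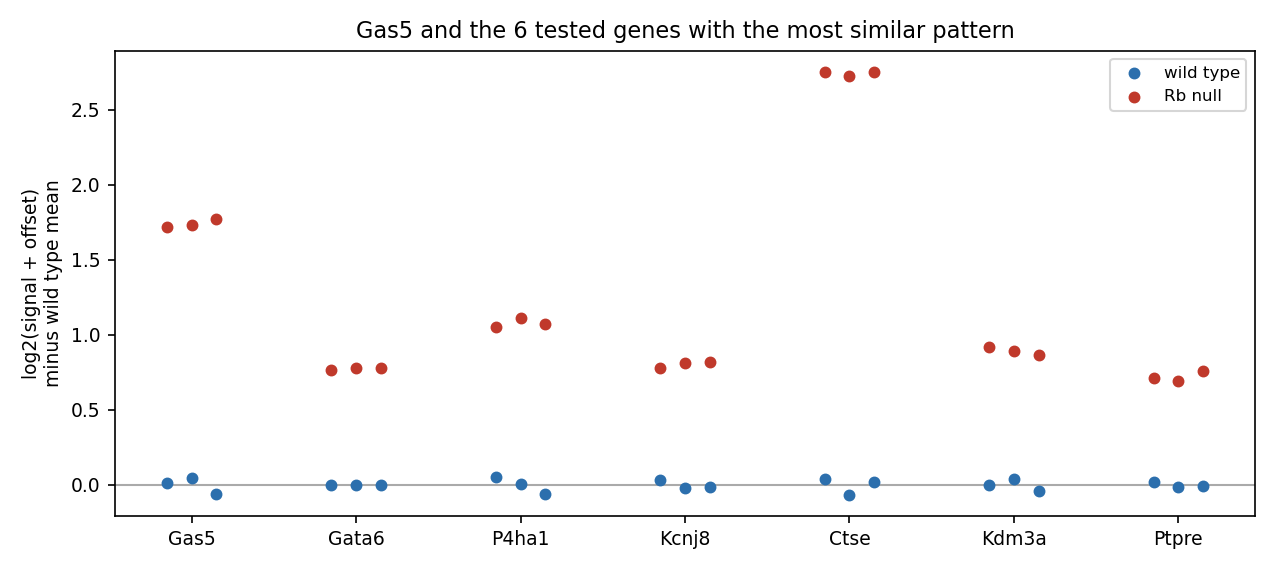
Log2 of signal plus offset, minus the wild type mean, for Gas5 and the 6 tested genes of most similar pattern, with wild type (blue) and Rb null (red) embryos 1 to 3 from left to right within each gene. Within a genotype the points are tight for all 7 genes, and the gap runs from 0.72 (Ptpre) to 2.74 (Ctse).

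The genotype labels were checked on Rb1, whose probe set 97948_at read 127 to 142 in Rb null and 706 to 791 in wild type livers. The sources used here do not place these probes relative to the null allele. Markers of several liver cell types moved between the same livers as Gas5. Over all tested genes, 13.1% were called higher and 9.5% lower. Of 9 tested erythroid markers 0 were called higher by limma (0 at an unadjusted p below 0.05) and 7 lower, with summed signals of the tested markers of 46143 to 51224 in Rb null and 60267 to 65487 in wild type livers. Among the other cell types, the tested markers called higher were 4 of 6 for mesenchyme, 5 of 8 for granulocytes, 2 of 3 for megakaryocytes, 2 of 6 for endothelium, 3 of 9 for macrophages and 1 of 8 for hepatoblasts (Hnf4a). The hepatoblast share of higher calls was 12.5%, near that of all tested genes. The hepatoblast markers Alb and Apoa1 were called lower, while 5 of the 8 had differences above 0 and the median was 0.13. The other 5 types had 0 markers called lower by limma, and 0 lower at an unadjusted p below 0.05. Their summed signals were 10259 to 11180 against 8176 to 8293 for mesenchyme, 11741 to 11832 against 8994 to 9146 for granulocytes, 2134 to 2558 against 1372 to 1458 for megakaryocytes, 4432 to 4868 against 3697 to 3942 for endothelium, 5538 to 5931 against 4845 to 5216 for macrophages, and 36441 to 38956 against 39144 to 42555 for hepatoblasts. Leaving out 1 embryo changed the higher calls to 3 to 4 for mesenchyme, 3 to 5 for granulocytes (3 without Rb null embryo 1), 2 to 3 for megakaryocytes, 1 to 2 for endothelium, 2 to 3 for macrophages and 1 to 3 for hepatoblasts, and the lower calls to 6 to 7 for erythroid and 0 to 2 for hepatoblast markers. By median scaling the higher calls numbered 2 for mesenchyme, 3 for granulocytes, 1 for macrophages and 1 for endothelium. With the filter at the trimmed mean they numbered 1 for megakaryocytes, 1 for endothelium and 0 for hepatoblasts. The lower erythroid calls numbered 4 without shared-probe suffixes. The endothelial Cdh5 call was lost without any 1 embryo other than wild type embryo 2 (limma adjusted p from 0.052 to 0.074), and the macrophage Csf1r call without Rb null embryo 2 or 3 or wild type embryo 2 or 3 (p from 0.052 to 0.083). The mesenchyme Col1a1 call was lost without Rb null embryo 1 or 3 or wild type embryo 1 or 2 (limma adjusted p from 0.056 to 0.082). That of the granulocyte gene Mpo was lost without Rb null embryo 1 or 2 (limma adjusted p = 0.054 and 0.055). The Alb call was lost without any 1 embryo other than wild type embryo 1 (p from 0.074 to 0.12), and that of Apoa1 without Rb null embryo 1 or 2 or wild type embryo 3 (p from 0.061 to 0.071). Some defining markers stayed below the signal filter, namely Pf4, Pecam1, Des, Pdgfrb, Ctsg and Adgre1.

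Of 10 tested genes that respond to tissue handling or heat, 5 were called higher and 1 lower, with summed signals of 6784 to 6860 against 6610 to 6752. Their median log2 difference was 0.37, beside 0.02 over all tested genes. The largest differences were those of Hspa1a (1.89 ± 0.16), Hspa1b (1.53 ± 0.11), Atf3 (0.83 ± 0.10) and Ier3 (0.80 ± 0.09), all higher. Calls over all tested genes were 13.1% higher and 9.5% lower. The higher calls of this list numbered 1 with the filter at the trimmed mean. The ratio of the 3 prime to the 5 prime control probe set of Gapdh was 0.829 to 0.888 in Rb null and 0.915 to 0.924 in wild type arrays, and that of actin 1.19 to 1.31 against 1.12 to 1.21. The part of these cell type, handling and RNA quality differences in the Gas5 difference was not tested.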

How the data were processed

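RNA of 3 Rb null and 3 wild type fetal livers was hybridised to 1 Affymetrix MG-U74Av2 array each. The deposited signal values are MAS5 values on a linear scale, per the submitters' processing notes, and their version and scaling target are not given in the sources used here. Every array had a trimmed mean of 500.2 (2% trimmed at each end). Arrays have no read depth, and their number limits the precision. Symbols came from the platform annotation, updated through the RefSeq table of GRCm38.p6. All 6793 probe sets with a mean signal above 150.1, controls left out, were tested as log2(signal + 50.02) with limma 3.58.1 in R 4.3.3. The fit used lmFit and eBayes with an intensity trend. Benjamini-Hochberg adjustment ran over these 6793 probe sets, including those with several symbols or none (threshold 0.05). The 5273 tested genes are those with a tested probe set of 1 symbol. A gene is represented by its brightest probe set. The p-values set the genotype difference against the spread between embryos of a genotype, which the fit estimates with the help of all tested probe sets. With 1 array per embryo, this spread includes that between arrays. The fit was tested on simulated data.

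Members and gene lists were chosen with earlier results of these data known. Each list is given by its counts and by named genes. Outside the cell type lists, these are the called members of largest difference (at most 4) or the 2 of smallest p. Of the cell type lists, only some of the genes picked by this rule are named. Also given are every non-protein snoRNA host on the array, the 5 array genes on each side of Gas5, the 6 genes most correlated with it, and Rb1. Any further tested gene is marked where it appears. Further genes below the signal filter, such as Nr3c1 and Upf2, are named without such a mark. Alternatives were other scalings, offsets, filters and probe set rules, no intensity trend, a replicate block and leaving out each embryo.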

Additional observations from a re-analysis of the deposited data

How the results depend on the processing

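The Gas5 difference stayed positive under every alternative run. It was 1.61 after median scaling, 1.81 with a smaller and 1.60 with a larger offset, 0.92 as the average of its probe sets, 1.01 without shared-probe suffixes, and 1.71 to 1.76 on leaving out 1 embryo. Higher calls over all genes numbered 690, against 366 after median scaling, 428 with the filter at the trimmed mean, and 406 to 553 on leaving out 1 embryo. Lower calls numbered 501, against 1093 after median scaling and 257 to 428 on leaving out 1 embryo. Of the 83 genes of the lists on snoRNAs, translation, decay, steroids and growth arrest, higher calls numbered 5, against 2 with the filter at the trimmed mean, 1 with the mean of probe sets and 3 to 5 on leaving out 1 embryo. Their lower calls numbered 15, against 8 after quantile normalization, 43 after median scaling, 6 with no filter, 4 with no intensity trend and 4 to 15 on leaving out 1 embryo. The albumin gene Alb turned from -0.20 to 0.040 after quantile normalization, and the uncalled Epb41l4aos from -0.01 to 0.049 without Rb null embryo 3 and 0.032 without wild type embryo 1 (range -0.060 to 0.049 on leaving out 1 embryo). The cause of these shifts was not tested. Upward calls made up 57.9% of all calls, 25.1% after median scaling and 44.5% with the filter at the trimmed mean. All alternatives were also compared for 54 tested genes picked from the lists and around Gas5, some of which are not named above. Of their values, 719 kept direction and side of the threshold, 110 lost the call, 11 gained it and the 3 given above changed sign.

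Equal replicate numbers did not pair embryos 1 and 2, while embryos 3 were each other's closest match in 1 direction checked (correlations of deviations -0.06, 0.05 and 0.27 for numbers 1 to 3). The wild type embryos that matched Rb null embryos 1, 2 and 3 best were numbers 2, 1 and 3. With the replicate block the Gas5 difference was 1.74, with 639 higher and 488 lower calls over all genes, and 5 and 16 in the lists.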
